A study of Homo sapiens with 12 samples.

Results

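RNA levels were compared between a pair of human embryonic kidney cell lines in which a copy of ERO1A, the gene of the endoplasmic reticulum (ER) oxidase Ero1α, had been switched on. The mutant line made Ero1α-C104A/C131A, in which 2 cysteines were replaced by alanine, and the WT line made wild-type Ero1α. The comparison rests on 6 of the 12 arrays of the series, chosen by title: the 3 of the induced C104A/C131A line and the 3 of the induced WT line, with every difference given as mutant minus WT. The other 6 arrays are those of the same lines without induction, and they show how much of a difference was there before the transgenes were switched on.

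Both lines were made from HEK-293 Flp-In T-REx cells, in which a transgene is recombined into 1 landing site and is driven by a promoter that doxycycline opens. Both were kept in hygromycin B and blasticidin, and both induced groups received doxycycline for 24 h, so the drug is common to the groups compared. The endogenous ERO1A gene is present in these cells, and the array's ERO1A probe set does not tell its RNA from that of the transgene. The sources used here do not say whether a line is 1 clone or a pool, and arrays of parental cells given doxycycline were not analysed here. The 3 replicates of a group, A, B and C, are called biological in the titles, but what separates them is not described, so the p-values measure the spread between these samples, which may be technical.

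Proteins that enter the ER form disulfide bonds by passing electrons to protein disulfide isomerase (PDI), which Ero1α reoxidises at the cost of oxygen, with hydrogen peroxide as a product. Ero1α is restrained by disulfides within its own chain, and the exchanged cysteines take part in them, so the mutant is known as a more active oxidase. When folding in the ER is disturbed, the sensors IRE1, PERK and ATF6 start the unfolded protein response, which raises ER chaperones, folding enzymes and the machinery that returns misfolded proteins to the cytosol for degradation.

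The arrays gave log2 levels for 32321 probe sets, of which 18404 named genes entered the tests. The median level of an array was 6.36 to 6.43. Arrays of 1 group correlated over probe sets with r of 0.992 to 0.996, against 0.984 to 0.995 between groups. A gene is called higher or lower where its limma test of the line difference, two-sided, had a Benjamini-Hochberg adjusted p below 0.05 over all genes; errors are moderated standard errors (SE) and intervals are 95%. In these bulk samples fewer cells of a type and less RNA per cell cannot be told apart. The first component of the arrays' deviations from their group means had WT uninduced A at one end and C104A/C131A induced B at the other, and counts without the latter are given where it decides them. The median log2 difference of all genes was -0.04, and the number of arrays limits the precision.

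ERO1A itself was nearly equal in the induced lines. Its log2 level was 12.66, 12.68 and 12.68 in WT arrays A, B and C and 12.49, 12.52 and 12.63 in mutant arrays A, B and C. The mutant arrays all lay below the WT arrays, but the difference of -0.13 ± 0.06 (0.912-fold, 95% interval -0.27 to 0.0079) did not pass (adjusted p = 0.178). Without induction the mutant line was lower, with mean log2 levels of 10.12 against 10.55 (0.740-fold, adjusted p = 0.000454). With induction ERO1A was 5.38-fold higher in the mutant line and 4.37-fold in the WT line, and the change of the line difference was 0.30 (unadjusted p = 0.00652, adjusted p = 0.982). The comparison had been chosen for its similar ERO1A levels, so their closeness is a description, and the part of ERO1A level in the other differences was not tested.

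The induced lines differed in 3979 of the 18404 genes, 21.6%, of which 1982 (10.8%) were higher and 1997 (10.9%) lower in the mutant line. These shares are those to set beside the counts of every list below. Most of these differences were small: the median absolute log2 difference of the called genes was 0.35, 641 reached 1.5-fold, 148 reached 2-fold and 22 reached 4-fold. The 2-fold set held 80 higher and 68 lower genes. For 36.3% of all genes the 3 mutant and 3 WT arrays did not overlap. The count of called genes was 3007 without WT induced B and 3394 without C104A/C131A induced B.

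Most of the difference was present before induction. Between the uninduced lines 3934 genes (21.4%) were called, and 2898 genes were called in both states, which is 72.8% of the induced calls and 73.7% of the uninduced calls. Of the 2898, all but 2 had the same direction; the exceptions were DERL3, a member of the degradation machinery described below, and the small nucleolar RNA gene SNORD115-44. Among the 148 genes at 2-fold or more, 147 were called in the same direction without induction, and 137 reached 2-fold there too. The comparisons of the induced and the uninduced lines share no array, and over all genes their log2 differences correlated with r = 0.858, a value given as a description, since genes are not independent and the lines are the same.

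**Figure D1:**
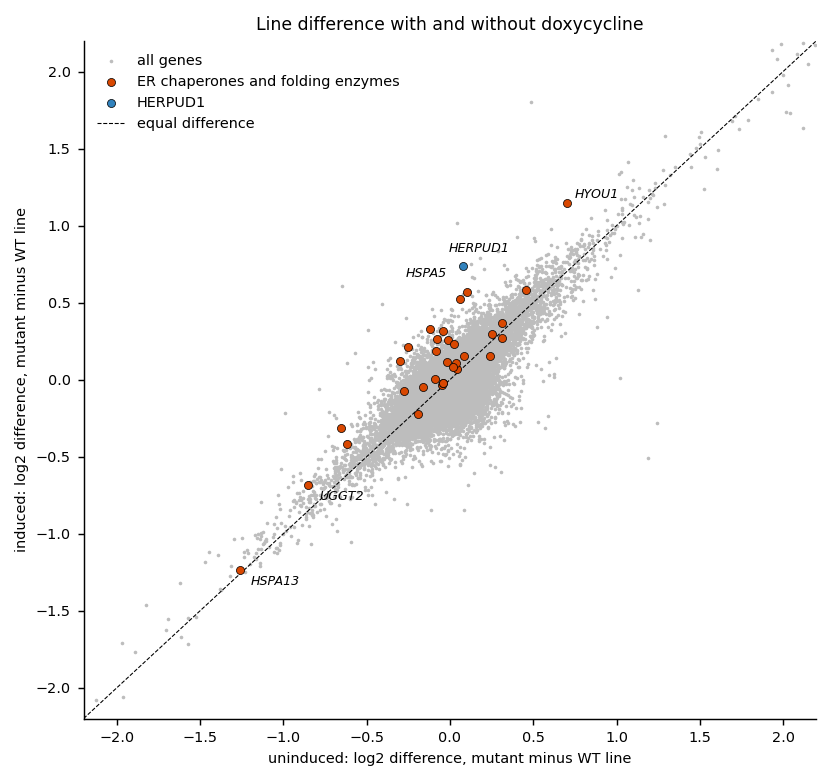
Log2 difference between the mutant and WT lines (mutant minus WT, means of 3 arrays each) for every tested gene not on the Y chromosome, without induction on the x axis and with both transgenes induced on the y axis. Of these genes, 13 lie outside the axes. Most genes with large differences lie near the diagonal, while HERPUD1, HSPA5 and SDF2L1 lie near 0 on the x axis and between 0.53 and 0.74 on the y axis.

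The remaining 1081 genes were called only with both transgenes induced, 455 higher and 626 lower, with a median absolute log2 difference of 0.27 against 0.39 for the shared calls. Being called in 1 state only does not show a difference between states. That difference, the change of the line difference on induction, was tested as the interaction of line and induction: with limma 0 genes passed after adjustment (0.0%), the lowest adjusted p being 0.185, and 774 genes (4.21%) had an unadjusted p below 0.05. Of the 1081 genes, 197 had such an unadjusted p. The 1081 were chosen for a call in the induced state without a call in the uninduced state. The change compares these same line differences, so the choice itself raises this count. It is a description and cannot show which genes changed with induction. An ordinary two-way analysis of variance, a replicate block and each fit without 1 array also gave 0. Genes were called only with dim genes left out (7), with a trend and robust prior (9) or with array weights (4). All of these were increases, and they are named below.

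ER chaperones were the first group examined. Of 32 measured members of a list of 33, 12 were higher and 5 lower in the induced mutant line, 53.1% called against 21.6% of all genes, with a median log2 difference of 0.14 against -0.04 for all genes. The median log2 level of the list was 9.20 against 7.02 for all genes, and the part of level in the share called was not tested. The same limit holds for the other lists at higher levels than all genes. Between the uninduced lines 5 members were higher and 8 lower, with a median of -0.04. The change of the line difference was above 0 for 29 of the 32, against 8449 of all 18404 genes. Its median was 0.13 against -0.01 over all genes. For an increase 11 members had an unadjusted p below 0.05, against 1.37% of all genes, and none had it for a decrease.

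HSPA5 encodes BiP, the Hsp70 chaperone of the ER that also holds the stress sensors inactive. Its log2 level was 11.75, 11.80 and 11.92 in induced WT arrays A, B and C and 12.30, 12.39 and 12.36 in the induced mutant arrays. All mutant arrays lay above all WT arrays, a difference of 0.53 ± 0.06 (1.44-fold, adjusted p = 4.14e-05). Without induction the values were 11.18, 11.15 and 11.13 in the WT line and 11.17, 11.25 and 11.22 in the mutant line, which overlap (difference 0.06, adjusted p = 0.517). The change of the line difference with induction was 0.46 (95% interval 0.29 to 0.64) and did not pass over all genes (adjusted p = 0.195).

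SDF2L1, an ER protein that assists BiP and its J-domain partners, had log2 levels of 8.36, 8.37 and 8.19 in the induced WT arrays and 8.93, 8.90 and 8.78 in the induced mutant arrays. The groups did not overlap, and the mutant line was 1.48-fold higher (0.57 ± 0.06, adjusted p = 6.87e-05). Between the uninduced lines the difference was 0.10 (adjusted p = 0.307). PDIA4, a PDI family member with ER retention, stood at 11.05, 11.04 and 10.99 in the induced WT line and 11.39, 11.34 and 11.33 in the induced mutant line, 1.25-fold higher (0.33 ± 0.05, adjusted p = 0.000797). Without induction PDIA4 was at -0.12 (adjusted p = 0.135), and the change between states was 0.45 (adjusted p = 0.195). HSP90B1, the ER Hsp90 chaperone GRP94, was at 12.11, 12.19 and 12.20 against 12.43, 12.48 and 12.54, also 1.25-fold higher (0.32 ± 0.05, adjusted p = 0.000804), and at -0.04 without induction. CRELD2, an ER protein released under stress, was 1.20-fold higher (0.27 ± 0.06, adjusted p = 0.0114) and at -0.08 without induction.

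HYOU1, the nucleotide exchange factor and chaperone GRP170, gave the largest increase of the list. It stood at 8.71, 8.83 and 8.82 in the induced WT arrays and at 9.96, 9.95 and 9.88 in the induced mutant arrays, 2.21-fold higher (1.15 ± 0.05, adjusted p = 8.98e-08). Unlike HSPA5, it was also higher without induction (0.70, adjusted p = 3.04e-06), and the change of the line difference was 0.44 (95% interval 0.28 to 0.60, adjusted p = 0.195). HYOU1 lies within a run of 9 neighbouring tested genes on chromosome 11, from RPS25 to HINFP (order of the GRCh38.p14 RefSeq table), that were all higher in the induced mutant line, with a median log2 difference of 0.71 with induction and 0.64 without it. SIL1, the other nucleotide exchange factor of BiP, was higher (0.58 ± 0.08, adjusted p = 0.000213) and 0.46 higher without induction, and it ends a run of 11 higher genes on chromosome 5.

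The rest of the higher members were SDF2, DNAJC1, SEC63, CRELD1 and CANX, the membrane-bound lectin chaperone calnexin, with log2 differences of 0.23 to 0.37. CANX begins a run of 6 higher genes on chromosome 5 with a median log2 difference of 0.36, and 0.42 without induction. SDF2 lies in a run of 6 higher genes on chromosome 17 with a median of 0.41, and 0.40 without induction. The 5 lower members, of which 3 were called without WT induced A, WT induced B or C104A/C131A induced C, were mostly lower before induction as well. HSPA13, an Hsp70-like protein of microsomes, was at 8.90, 8.92 and 8.95 in the induced WT line and 7.61, 7.88 and 7.56 in the induced mutant line, 0.424-fold (-1.24 ± 0.09, adjusted p = 2.67e-06), and at -1.26 without induction. UGGT2, a sensor of glycoprotein folding, was at 0.622-fold (-0.68 ± 0.10, adjusted p = 0.000294; -0.85 without induction), and CLGN and SERPINH1, a testis lectin chaperone and the collagen chaperone, were at -0.42 and -0.23. DNAJC3, the co-chaperone p58IPK, was at -0.31 ± 0.09 (adjusted p = 0.033) with induction and at -0.65 without it; its call was lost when any induced array other than C104A/C131A induced B was left out (adjusted p of up to 0.113). UGGT2 and DNAJC3 are on chromosome 13 and HSPA13 on chromosome 21, chromosomes described below.

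**Figure D2:**
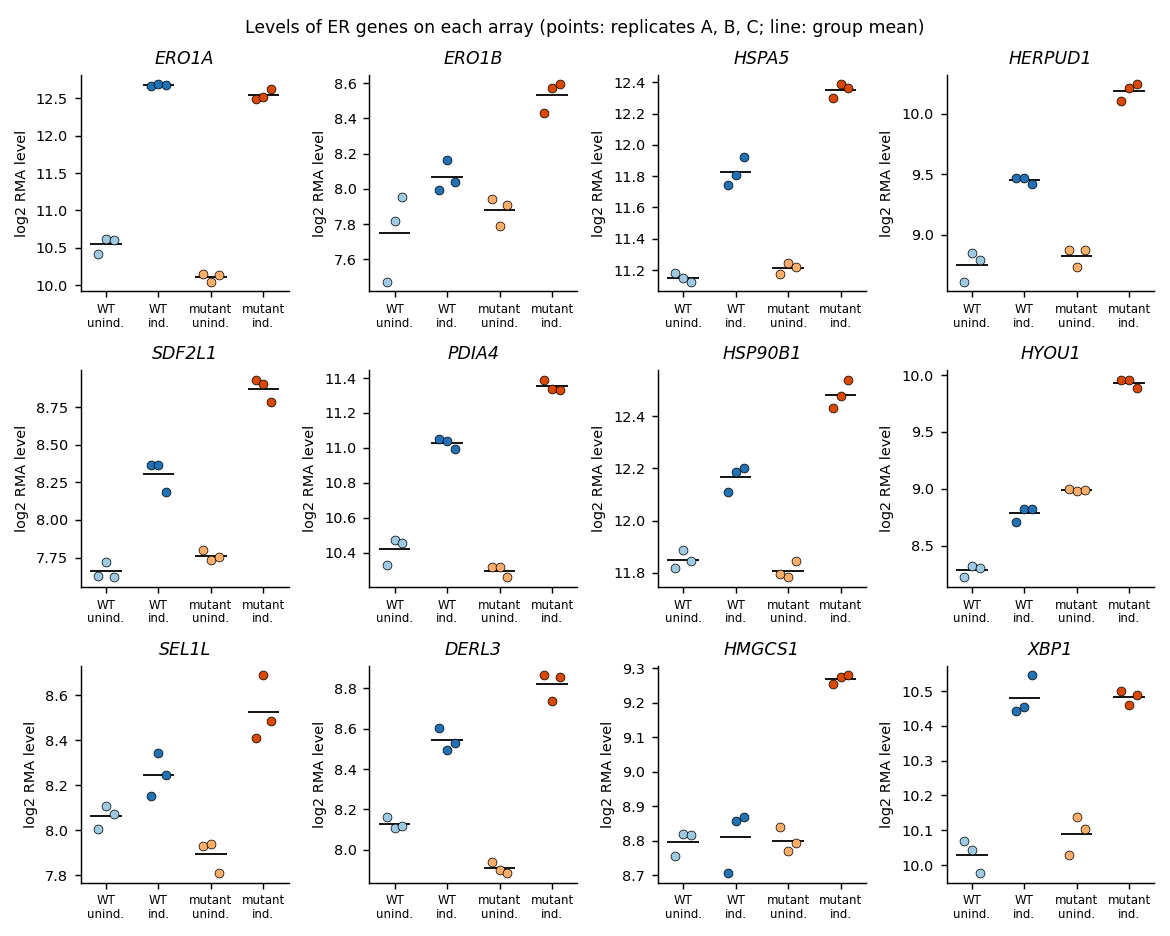
Log2 RMA level (y axis of each panel) of 12 genes on every array of the 4 groups (x axis: WT and mutant line, uninduced and induced), with the points as arrays and a line at each group's mean. ERO1A was nearly equal in the induced lines, while HSPA5, HERPUD1, SDF2L1, PDIA4 and HSP90B1 were higher in the induced mutant line and had uninduced differences between -0.12 (PDIA4) and 0.10 (SDF2L1), the uninduced arrays of these 2 without overlap, and XBP1 overlapped between the induced lines.

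Several of these genes have promoters with an ER stress response element, the sequence bound by ATF6 and XBP1 together with NF-Y. It was searched for on both strands in RefSeq's window from 250 bases before to 50 after each gene start (GRCh38.p14), as ERSE (CCAAT and CCACG with any 9 bases between them) and as ERSE-II (ATTGG and CCACG with any 1 base between them). ERSE was found in 22 of 27305 promoters (0.0806%) and ERSE-II in 15 (0.0549%). Of the 30 ER chaperone genes with a promoter in the table, 5 held ERSE (HSPA5, HSP90B1, CALR, CANX, CRELD2) and 2 held ERSE-II (HYOU1, SDF2L1). By call, 4 of the 11 that were higher in the induced mutant line held ERSE against 1 of the other 19, CALR. The calls are of these same data, and the list was drawn up with earlier results known. The split, and the share of the list with a match beside that of all promoters, are therefore descriptions and were not tested. Of 24 ERAD genes, HERPUD1 held ERSE-II. None of the 22 sterol synthesis and 33 ER entry and export promoters held either, which says only that these letters are not in the window. The stretches around the matches are shown 5′ to 3′ on the gene's strand, for the ER chaperone and ERAD genes with a match, whether called or not. The conserved letters of each match, or their reverse complement, are in capitals.
HSPA5, chr9:125241371-125241429, minus strand: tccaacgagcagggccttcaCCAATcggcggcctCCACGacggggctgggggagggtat
HSP90B1, chr12:103930196-103930359, plus strand: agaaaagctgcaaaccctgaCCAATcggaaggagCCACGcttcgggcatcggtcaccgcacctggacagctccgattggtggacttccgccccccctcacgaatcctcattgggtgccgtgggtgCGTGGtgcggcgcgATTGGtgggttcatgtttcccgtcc
CRELD2, chr22:49918534-49918592, plus strand: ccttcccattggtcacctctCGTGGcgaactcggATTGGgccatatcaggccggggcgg
CANX, chr5:179698758-179698816, plus strand: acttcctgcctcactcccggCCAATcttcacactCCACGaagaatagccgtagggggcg
CALR, chr19:12938364-12938422, plus strand: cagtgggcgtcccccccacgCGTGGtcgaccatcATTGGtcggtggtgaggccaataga
HYOU1, chr11:119057254-119057410, minus strand: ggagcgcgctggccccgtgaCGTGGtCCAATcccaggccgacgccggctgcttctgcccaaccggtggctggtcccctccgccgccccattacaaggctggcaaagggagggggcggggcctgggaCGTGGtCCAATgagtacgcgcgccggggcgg
SDF2L1, chr22:21642094-21642144, plus strand: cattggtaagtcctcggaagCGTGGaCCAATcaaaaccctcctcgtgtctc
HERPUD1, chr16:56932005-56932055, plus strand: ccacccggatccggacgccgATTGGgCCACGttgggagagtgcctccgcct

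HSP90B1 and HYOU1 each held 2 matches within the stretch shown. The HSPA5 match ran from 66 to 48 bases before the gene start, and that of HERPUD1 from 117 to 107. Not every gene with a match was called. CALR, the soluble lectin chaperone calreticulin, was at 11.29, 11.34 and 11.31 in the induced WT arrays and 11.45, 11.41 and 11.41 in the induced mutant arrays, a difference of 0.11 that did not pass (adjusted p = 0.0965). XBP1 and ERO1B, outside this list, also held ERSE. XBP1, the transcription factor made active by IRE1, was at 10.44, 10.46 and 10.54 in the induced WT line and 10.50, 10.46 and 10.49 in the induced mutant line. These overlap, and the difference was 0.0013 (95% interval -0.11 to 0.12, adjusted p = 0.99).

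ER-associated degradation (ERAD), which extracts misfolded proteins from the ER, had 7 higher and 3 lower genes among 28 measured of 30 (35.7% called, median log2 difference 0.01). Without WT induced A 4 were higher, and without WT induced B, C104A/C131A induced A or C104A/C131A induced C none was lower. Between the uninduced lines 1 was higher and 5 lower. HERPUD1, a membrane protein that organises the degradation complex, was at 9.47, 9.47 and 9.42 in the induced WT arrays and 10.11, 10.21 and 10.24 in the induced mutant arrays. Every mutant array lay above every WT array, by 1.67-fold (0.74 ± 0.07, adjusted p = 1.86e-05), whereas the uninduced lines were at 8.61, 8.85 and 8.79 and at 8.87, 8.74 and 8.87 and overlapped (0.08, adjusted p = 0.514). The change of its line difference with induction was 0.66 (95% interval 0.44 to 0.87, adjusted p = 0.185), the largest value among the ERAD genes.

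DERL3, a derlin channel component, was 8.60, 8.49 and 8.53 in the induced WT line and 8.86, 8.74 and 8.86 in the induced mutant line. It was 1.21-fold higher there (0.28 ± 0.05, adjusted p = 0.00279) but lower in the uninduced mutant line (-0.22, adjusted p = 0.011), with non-overlapping arrays in both states. DERL2, its paralog, was 1.25-fold higher (0.32 ± 0.05, adjusted p = 0.000586) and at 0.09 without induction. SEL1L, the adaptor of the ubiquitin ligase SYVN1, was 8.15, 8.34 and 8.24 against 8.41, 8.69 and 8.48, 1.21-fold higher (0.28 ± 0.08, adjusted p = 0.0225), and at -0.17 without induction. Its call was lost without WT induced A, WT induced C or C104A/C131A induced B (adjusted p of up to 0.087 over the settings). CRELD2, which is in this list too, UBE2J1 and UBE2J2, ubiquitin-conjugating enzymes of the ER membrane, completed the higher members, and UBXN4 (-0.31, adjusted p = 0.0319), TXNDC11 (-0.23) and UBE2G2 (-0.21) were the lower ones. The UBXN4 call was lost without any 1 of the induced arrays other than WT induced A (adjusted p of up to 0.0923), and that of TXNDC11 without WT induced B, C104A/C131A induced A or C104A/C131A induced C (up to 0.0744). EDEM1, which trims mannose from misfolded glycoproteins, was at 0.11 and did not pass (adjusted p = 0.486).

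ER oxidation and disulfide enzymes, the family to which Ero1α belongs, had 5 higher and 2 lower of 28 measured members of 30, ERO1A included, 25.0% called, near the 21.6% of all genes. Their median log2 difference of 0.00017 turns below 0 without WT induced B or C, and the 5 higher become 3 without WT induced B or C104A/C131A induced B. ERO1B, the paralog of ERO1A, had log2 levels of 8.0, 8.16 and 8.04 in the induced WT line and 8.43, 8.57 and 8.59 in the induced mutant line. The groups did not overlap, and the mutant line was 1.38-fold higher (0.47 ± 0.11, adjusted p = 0.00781). Without induction the WT arrays spread from 7.47 to 7.95 and held the mutant arrays at 7.79 to 7.94 between them (0.13, adjusted p = 0.449). PDIA4 is described above, and QSOX1, a sulfhydryl oxidase that makes disulfides without PDI, was 1.30-fold higher (0.37 ± 0.07, adjusted p = 0.0032) with the same difference of 0.37 without induction.

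ERP29 and ERP44, PDI-like proteins of which ERP44 retains Ero1α in the ER, were higher by 0.26 (adjusted p = 0.0277) and 0.20; the ERP29 call was lost without WT induced B, C104A/C131A induced A or C104A/C131A induced B (adjusted p of up to 0.116). VKORC1, the vitamin K reductase, was lower (-0.25 ± 0.06, adjusted p = 0.00833; -0.23 without induction), as was TXNDC11. PDIA6, another PDI family member, stood at 10.85, 10.89 and 10.95 in the induced WT line and 10.96, 11.05 and 11.03 in the induced mutant line. Its difference of 0.12 did not pass (adjusted p = 0.122), while without induction the mutant line was lower (-0.30, adjusted p = 0.00101). The peroxide-using enzymes PRDX4 and GPX8, which also drive oxidation in the ER, were at 0.14 (adjusted p = 0.108) and 0.26 (adjusted p = 0.18).

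Entry into the ER and export from it gave 10 higher and 5 lower genes of 37 measured of 39 (40.5% called, median 0.07). The lower count depended on single arrays: it was 0 without WT induced B, WT induced C or C104A/C131A induced C, 1 without WT induced A, 2 with a replicate block, and 2 or 3 without any other array but WT uninduced A. Without WT induced A the higher count was 6. SEC24A, a cargo adaptor of the COPII coat, was 1.58-fold higher (0.66 ± 0.06, adjusted p = 1.05e-05), and SRP54, the GTPase of the signal recognition particle, 1.47-fold (0.56 ± 0.07, adjusted p = 0.000161). The GTPase SAR1B, which starts the COPII coat, was 1.34-fold higher and the signal peptidase subunit SPCS3 1.29-fold. SSR3 of the translocon-associated complex was at 1.26-fold and SRP9 of the signal recognition particle at 1.21-fold. Without WT induced A the SPCS3 and SSR3 calls were lost, as they were without C104A/C131A induced C and WT induced B respectively (adjusted p of up to 0.0574 and 0.0568). SEC24A and SAR1B are neighbours in a run of 6 higher genes on chromosome 5, and SRP54 begins such a run on chromosome 14; their uninduced differences were 0.59, 0.28 and 0.45. SEC24D, a paralog of SEC24A, was at 0.10 and did not pass (adjusted p = 0.31).

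The sensors and transcription regulators of ER stress had 7 higher and 2 lower of 25 measured genes of 26 (36.0% called, median 0.0013, which is below 0 without WT induced B or C or C104A/C131A induced A or C). DDIT3, which encodes the pro-apoptotic factor CHOP, was at 7.70, 7.38 and 7.50 in the induced WT line and 8.30, 8.35 and 8.14 in the induced mutant line. It was 1.67-fold higher without overlap (0.74 ± 0.08, adjusted p = 5.12e-05) and was already higher without induction (0.54, adjusted p = 0.00051). PPP1R15A, the phosphatase subunit GADD34, was 1.41-fold higher (0.49; 0.60 without induction), ATF3 1.35-fold (0.43; 0.37), SESN2 1.34-fold (0.43; 0.57) and DDIT4 1.22-fold (0.29; 0.30). CREBZF, a bZIP transcription regulator, was lower (-0.65 ± 0.09, adjusted p = 0.000213; -0.80 without induction). For none of the 25 genes did the change of the line difference have an unadjusted p below 0.05.

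Amino acid and ATF4 target genes had 5 higher and 4 lower of 29 measured of 31 (31.0% called, median 0.05). PYCR1, which makes proline, was at 6.58, 6.42 and 6.21 in the induced WT line and 7.77, 7.90 and 7.65 in the induced mutant line, 2.58-fold higher (1.37 ± 0.12, adjusted p = 8.77e-06; 1.60 without induction). STC2, a secreted glycoprotein, was 1.56-fold higher and the glutamine transporter SLC1A5 1.29-fold. STC2 ends a run of 8 higher genes on chromosome 5 with a median log2 difference of 0.42, and 0.42 without induction. TXNIP, which binds thioredoxin, was at 0.432-fold (-1.21 ± 0.09, adjusted p = 4.17e-06; -1.14 without induction), and the transporters SLC1A4 and SLC7A5 were at 0.690-fold and 0.725-fold. ATF4 itself (0.12, adjusted p = 0.131), TRIB3 (0.23, adjusted p = 0.0514), the asparagine synthetase ASNS (-0.04, adjusted p = 0.71) and the glutathione-degrading enzyme CHAC1 (-0.03, adjusted p = 0.765) did not pass.

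Antioxidant and NRF2 target genes, which handle hydrogen peroxide and other oxidants, had 7 higher and 2 lower of 35 measured of 38 (25.7% called, near the share of all genes, median 0.09). The glutaredoxin GLRX was at 7.38, 7.38 and 7.49 in the induced WT line and 8.49, 8.50 and 8.54 in the induced mutant line, 2.14-fold higher (1.10 ± 0.07, adjusted p = 7.07e-07), and 1.04 higher without induction. SQSTM1, the autophagy receptor p62, was 1.64-fold higher (0.72; 0.73 without induction), the malic enzyme ME1 1.37-fold, the ferritin light chain FTL 1.34-fold and the pentose phosphate enzyme PGD 1.33-fold. SRXN1, the sulfiredoxin that repairs peroxiredoxins, was 1.30-fold higher (0.38 ± 0.08, adjusted p = 0.00366; 0.41 without induction). The transporter ABCC1 (0.758-fold) and catalase, CAT (-0.34), were lower, and HMOX1 was at 0.20 (adjusted p = 0.134). Of the 35 genes, 1 had an unadjusted p below 0.05 for an increase of the line difference with induction. SQSTM1 lies in the run of higher genes on chromosome 5 that CANX begins. Without chromosomes 5, 13 and 21 the list had 5 higher and 2 lower of 32.

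A panel of 29 ER stress and oxidant genes, given in full and overlapping the lists above, held 13 higher genes and 1 lower, DNAJC3 (48.3% called against 21.6% of all genes, median 0.23). It was drawn up with earlier results of these data known and is not independent of them. For 15 of the 29 the change of the line difference had an unadjusted p below 0.05, all increases, against 1.37% of all genes for an increase. Of the 15, 1 was ERO1A, the gene of the transgene itself. MANF, a secreted ER protein, did not pass in the induced state (0.21, adjusted p = 0.0751) and was lower in the uninduced mutant line (-0.25, adjusted p = 0.0376). DNAJB9, a co-chaperone that IRE1-XBP1 signalling raises, was at 7.64, 7.58 and 7.79 in the induced WT arrays and 7.73, 8.05 and 7.69 in the mutant arrays. These overlap, with a difference of 0.15 (95% interval -0.05 to 0.35, adjusted p = 0.279).

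**Figure D3:**
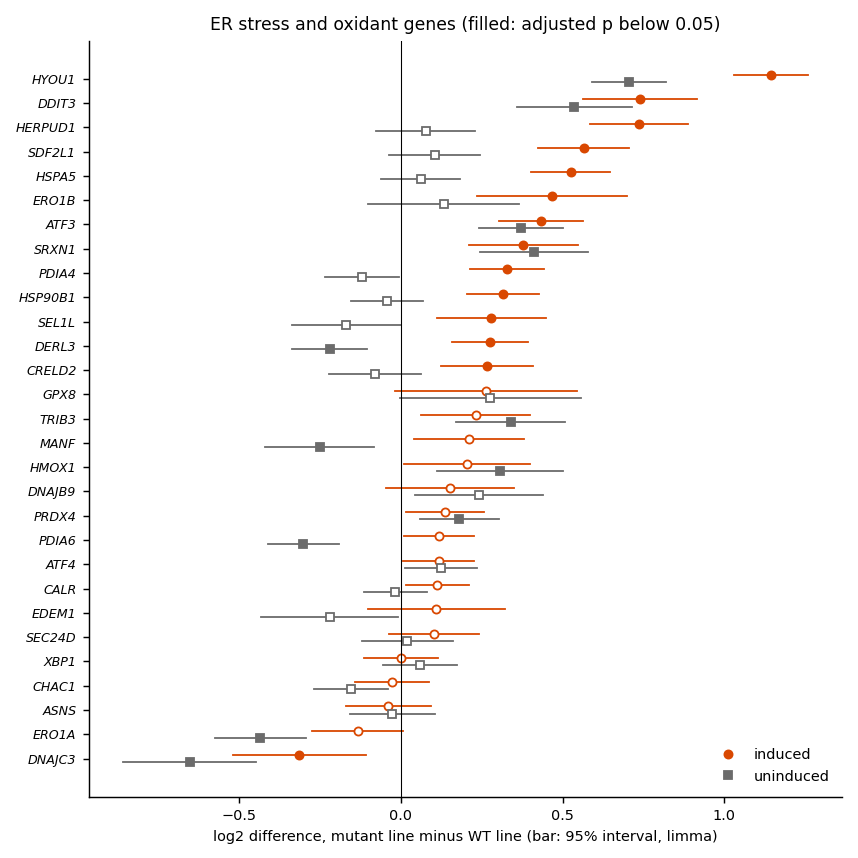
Log2 line difference (mutant minus WT, x axis) of the 29 panel genes (rows) with both lines induced and with both uninduced; bars are 95% intervals and filled symbols mark an adjusted p below 0.05. HYOU1 had the largest induced difference (1.15), XBP1 was at 0.0013, and HERPUD1 and HSPA5 were filled with induction only.

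Sterol synthesis genes had 9 higher and 3 lower of 24 measured of 30 (called: 12 of 24 against 21.6% of all genes, median 0.03), and 4 higher and 5 lower without induction. For 7 of the 24 the change of the line difference had an unadjusted p below 0.05, all increases, against 1.37% of all genes for an increase, with a list median change of 0.09. HMGCS1, the HMG-CoA synthase, was at 8.71, 8.86 and 8.87 in the induced WT line and 9.26, 9.28 and 9.28 in the induced mutant line. The mutant line was 1.37-fold higher without overlap (0.46 ± 0.05, adjusted p = 9.1e-05), while the uninduced means were 8.80 in both lines (difference 0.0033, adjusted p = 0.977). The change of its line difference with induction was 0.45 (95% interval 0.29 to 0.62, adjusted p = 0.195).

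IDI1, the isopentenyl diphosphate isomerase, was at 9.30, 9.31 and 9.35 against 9.75, 9.79 and 9.78, also 1.37-fold higher (0.45 ± 0.06, adjusted p = 0.000193), and at 0.12 without induction. INSIG1, the ER protein that retains the SREBP processing complex and is itself an SREBP target, was 1.46-fold higher (0.55 ± 0.05, adjusted p = 2.06e-05; 0.27 without induction). STARD4, a sterol carrier, was 1.49-fold higher (0.57 ± 0.10, adjusted p = 0.00103; 0.17 without induction). SC5D, a late sterol desaturase, had the largest difference (2.15-fold, adjusted p = 1.96e-05) but was 0.93 higher without induction. SREBF1 was 1.25-fold higher, and squalene epoxidase SQLE (0.30), the fatty acid desaturase SCD (0.24) and EBP (0.20) completed the higher genes. SCAP, the escort of SREBP, PMVK and TM7SF2 were lower (-0.24 to -0.26). HMGCS1 and STARD4 are on chromosome 5, where higher calls were frequent in both states.

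**Figure D4:**
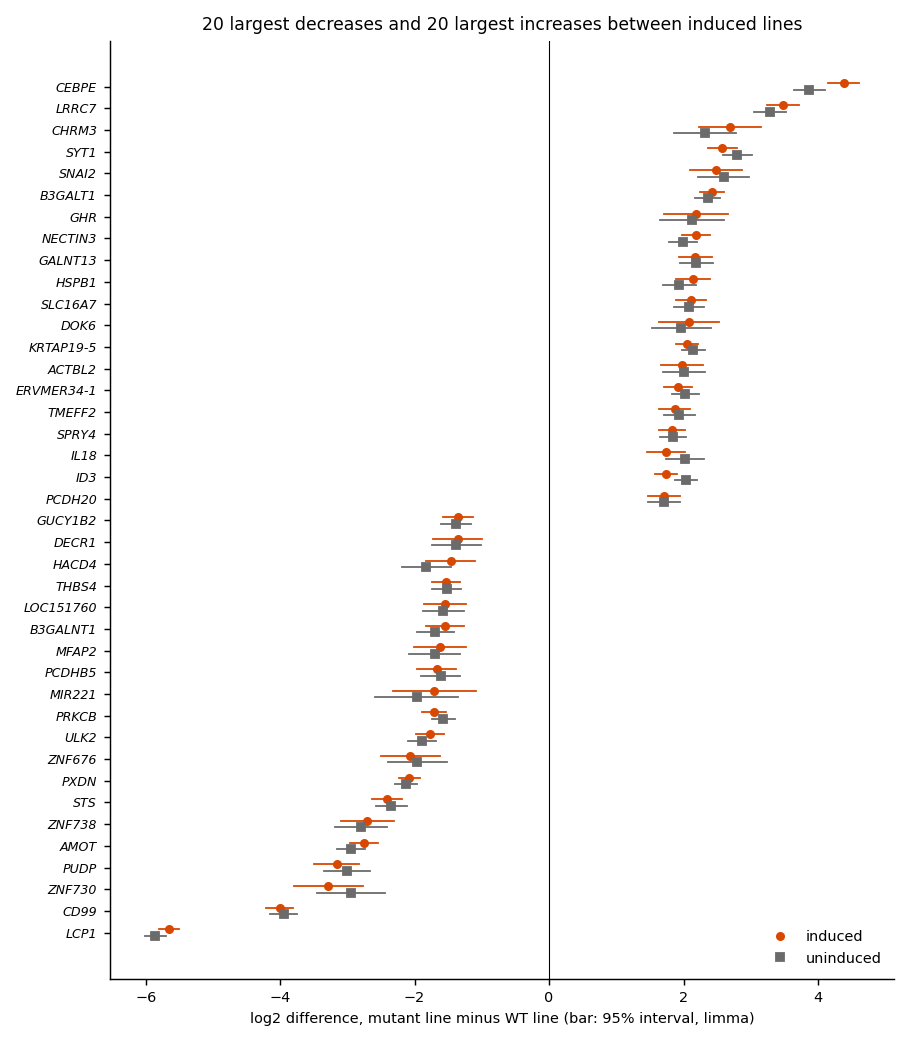
Log2 line difference (mutant minus WT, x axis) of the 20 lowest and 20 highest called genes of the induced comparison whose arrays did not overlap (rows), with circles for the induced lines, squares for the uninduced lines and bars for 95% intervals. For every gene shown the square lies on the same side of 0 as the circle, from LCP1 at -5.65 to CEBPE at 4.38.

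The largest differences were not in ER genes, and each gene plotted was on the same side of 0 without induction. LCP1, the actin-bundling protein L-plastin of blood and tumour cells, had log2 levels of 11.06, 11.12 and 11.14 in the induced WT arrays and 5.47, 5.40 and 5.50 in the induced mutant arrays. The mutant line was at 0.0199-fold (-5.65 ± 0.07, adjusted p = 3.63e-13), and at -5.86 without induction. CD99, an adhesion glycoprotein, was at 10.09, 9.98 and 10.09 against 6.11, 6.05 and 6.0, 0.0623-fold (-4.00 ± 0.09, adjusted p = 2.53e-10; -3.95 without induction). PUDP and STS, on the X chromosome like CD99, were at 0.112-fold and 0.188-fold, and AMOT, the angiomotin that binds YAP, at 0.148-fold. Several zinc finger genes of chromosome 19, ZNF730 (0.103-fold), ZNF738 (0.154-fold) and ZNF676 (0.239-fold), were among the lowest, as were the peroxidase PXDN (0.237-fold), the autophagy kinase ULK2 (0.293-fold) and the protein kinase PRKCB (0.305-fold).

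CEBPE, a granulocyte transcription factor, had log2 levels of 6.18, 5.87 and 6.05 in the induced WT arrays and 10.51, 10.43 and 10.29 in the induced mutant arrays. It was 20.8-fold higher (4.38 ± 0.10, adjusted p = 2.53e-10) and 3.87 higher without induction. LRRC7, a postsynaptic scaffold protein, was at 4.5, 4.46 and 4.45 against 7.76, 8.16 and 7.94, 11.1-fold higher (3.48 ± 0.11, adjusted p = 5.82e-09; 3.29 without induction). The muscarinic receptor CHRM3 (6.46-fold), the synaptic vesicle protein SYT1 (5.97-fold), the mesenchymal transcription factor SNAI2 (5.58-fold) and the growth hormone receptor GHR (4.54-fold) were also among the highest. HSPB1, the small heat shock protein Hsp27, was at 8.41, 8.15 and 7.87 in the WT arrays and 10.33, 10.30 and 10.21 in the mutant arrays (4.40-fold, adjusted p = 2.72e-07; 1.93 without induction). In each of these genes except HSPB1 the induced WT mean lay below the lowest array median of 6.36, CEBPE at 6.03 included. The same held for the induced mutant means of LCP1 (5.45), CD99 (6.05), PUDP, STS, the 3 zinc finger genes, PXDN, ULK2 and PRKCB. Near background a fold change on an array is the least certain. KRTAP19-5, ACTBL2 and the zinc finger genes belong to families of similar genes and are uncertain for that reason.

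The called microRNA genes were all lower in the induced mutant line. Of 164 with a RefSeq sequence, 7 were lower and none higher, 4.27% called against 21.6% of all genes. An array probe set reads the RNA of the gene region rather than the mature miRNA. The mature sequences of the 3 with the largest differences are shown with the seed, bases 2 to 8, in capitals, because MIR221 and MIR222 share it (RefSeq, GRCh38.p14).
hsa-miR-221-3p, chrX:45746180-45746202, minus strand: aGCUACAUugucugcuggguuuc
hsa-miR-222-3p, chrX:45747036-45747056, minus strand: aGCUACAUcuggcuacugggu
hsa-miR-15a-5p, chr13:50049167-50049188, minus strand: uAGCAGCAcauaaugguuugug

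MIR221 was at 5.91, 6.73 and 6.87 in the induced WT arrays and 4.79, 4.77 and 4.82 in the induced mutant arrays, 0.306-fold (-1.71 ± 0.28, adjusted p = 0.000999), and at -1.97 without induction. MIR222, its neighbour on the X chromosome, was at -0.78 (adjusted p = 0.0181). MIR15A, on chromosome 13, was at 7.96, 8.25 and 7.94 against 7.0, 7.17 and 6.72, 0.471-fold (-1.09 ± 0.12, adjusted p = 4.41e-05; -1.08 without induction). In all 3 genes the arrays of the lines did not overlap. The other 4 called miRNA genes, MIR196A2, MIR199B, MIR412 and MIR487A, were at -0.23 to -0.31 from mean log2 levels of 3.01 to 4.87.

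Immediate early and MAPK feedback genes had 18 higher and 1 lower of 32 measured of 34 (59.4% called, median 0.29), much as without induction (20 higher, 1 lower, median 0.33). SPRY4, an inhibitor of receptor tyrosine kinase signalling, was at 5.70, 5.92 and 5.83 against 7.62, 7.80 and 7.51, 3.54-fold higher (adjusted p = 1.41e-07). DUSP1, a MAPK phosphatase, was 2.31-fold higher, EGR1 1.85-fold, MYC 1.76-fold and DUSP5 1.52-fold. SPRY2, a paralog of SPRY4 on chromosome 13, was the lower gene (0.625-fold, adjusted p = 5.64e-06). SPRY4, DUSP1 and EGR1 are on chromosome 5.

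Hippo pathway and YAP target genes had 7 higher and 3 lower of 31 (32.3% called, median 0.07): AMOT is named above, the YAP targets ANKRD1 (2.03-fold, adjusted p = 1.48e-05) and CCN2 (1.67-fold) and the ligand TGFB2 (1.81-fold) were higher, and VGLL3 was at 0.683-fold. Actin genes had 9 higher and 7 lower of 34 measured of 39 (47.1% called); their median of -0.0027 turns above 0 with arrays centred on their medians, with array weights, with dim genes left out and without WT induced A, WT induced C or C104A/C131A induced C. Beside LCP1, the membrane linker RDX was 1.69-fold higher, the cofilin CFL2 1.49-fold and the calponin CNN2 1.42-fold, and ACTA2 was at 0.734-fold. Epithelial and mesenchymal genes had 8 higher and 1 lower of 30 measured of 32 (median 0.05), with the filament gene VIM at 11.30, 11.27 and 11.31 against 11.87, 11.81 and 11.85 (1.47-fold, adjusted p = 6.34e-06), KRT19 at 1.36-fold and fibronectin, FN1, at 0.739-fold.

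Matrix and adhesion genes went both ways, 9 higher and 12 lower of 45 measured of 46 (46.7% called, median -0.08). The lysyl oxidase LOX (2.01-fold, adjusted p = 1.25e-06) and the fibrillin FBN2 (1.78-fold) were higher. FBN2 lies in a run of 12 higher genes on chromosome 5 with a median log2 difference of 0.44, and 0.37 without induction. SPARC, a secreted calcium-binding protein, was at 6.52, 6.51 and 6.69 against 5.62, 5.46 and 5.46 (0.478-fold, adjusted p = 1.41e-05), and the basement membrane nidogen NID2 at 0.664-fold. Synaptic genes had 6 higher and 2 lower of 30 measured of 35 (26.7% called, median -0.07, and 0.0033 without C104A/C131A induced B), with NCAM1 (2.18-fold) and CNTN1 (2.07-fold) higher beside LRRC7, CHRM3 and SYT1, and SYP at 0.645-fold.

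Hypoxia and glycolysis genes had 12 higher and 1 lower of 32 measured of 34 (40.6% called, median 0.01). NDRG1, a stress-responsive gene, was at 10.02, 9.98 and 9.95 against 11.18, 11.16 and 11.16, 2.27-fold higher (adjusted p = 2.08e-08; 1.16 without induction). HIF1A, the oxygen-regulated transcription factor subunit, was 1.62-fold higher, its hydroxylase EGLN3 1.56-fold, the collagen hydroxylase subunit P4HA2 1.57-fold and the pyruvate dehydrogenase kinase PDK1 1.41-fold. Cell cycle genes had 8 higher and 4 lower of 37 measured of 38 (32.4% called, median 0.0040). That median is below 0 with array weights (-0.02) and without WT induced A or C or C104A/C131A induced B or C, and the lower count is 2 without WT induced B. RB1, the retinoblastoma gene on chromosome 13, was at 10.64, 10.63 and 10.65 against 9.86, 9.87 and 9.93 (0.594-fold, adjusted p = 1.45e-05), while CDK6 (1.67-fold), CCND1 (1.39-fold), CCND2 (1.37-fold) and E2F2 (a log2 difference of 0.58) were higher.

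Chaperones outside the ER had 7 higher and 1 lower of 24 measured of 26 (33.3% called, median 0.07). After HSPB1 the highest were HSPB8 (1.65-fold), the cytosolic HSPA4 (1.37-fold) and the mitochondrial HSPA9 (1.36-fold), both on chromosome 5; HSP90AA1 was at 0.871-fold (adjusted p = 0.0462), a call lost without 1 array in 9 of the 12 cases (adjusted p of up to 0.155). Apoptosis and p53 genes were called about as often as all genes, 4 higher and 2 lower of 30 measured of 35 (median -0.02). CASP9 (1.35-fold), the death receptor TNFRSF10B (1.22-fold) and CASP8 (1.22-fold) were higher, and TP53I3 (0.729-fold) and the survivin gene BIRC5 (0.814-fold) lower.

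Calls were unevenly spread over the chromosomes. On chromosome 5, 401 of 781 tested genes (51.3%) were higher and 11 (1.41%) lower, with a median log2 difference of 0.25, and 0.25 without induction. Chromosome 13 had 157 of 316 genes (49.7%) lower, with a median of -0.30 (-0.30 without induction), and chromosome 21 had 61 of 236 (25.8%) lower, with a median of -0.15. These 3 chromosomes held 419 higher and 229 lower genes, 16.3% of the calls. Chromosome 16 had 24.1% lower genes and chromosome 1 had 17.5% higher.

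Neighbouring genes were often called together elsewhere too. The longest run of neighbours called the same way was 14 higher genes on chromosome 1, CAPN2 to EPHX1 (median 0.37; 0.28 without induction), followed by 13 lower genes on chromosome 13, FOXO1 to AKAP11 (median -0.75; -0.79 without induction). LCP1 lay within a run of 7 lower genes on chromosome 13 from ZC3H13 to ESD, with a median of -0.75. Such blocks were present in both states, and DNA copy number was not measured. Of the ER genes higher with induction and not called without it, HSPA5, HERPUD1, SDF2L1, PDIA4 and HSP90B1 are on chromosomes 9, 16, 22, 7 and 12, and ERO1B is on chromosome 1. These are not all such genes, and the part of the blocks in their differences was not tested.

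The responses of each line to induction give the same ER genes from another side. HERPUD1 was 2.57-fold higher with induction than without it in the mutant line (adjusted p = 1.41e-06) and 1.63-fold in the WT line (adjusted p = 0.00162), from like starting levels. In the mutant line 60 genes (0.326%) were called for induction and in the WT line 21 (0.114%). HMGCS1 was called in the mutant line (1.38-fold, adjusted p = 0.00214) and stood at 1.01-fold in the WT line (adjusted p = 0.996), and ERO1B at 1.57-fold (adjusted p = 0.0226) and 1.25-fold (adjusted p = 0.972). Each response shares its induced arrays with the line difference given above, so these values restate it and do not add support to it.

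Among the 3979 called genes, 257 had an unadjusted p below 0.05 for the change of the line difference, 91 increases and 166 decreases. Over all 18404 genes 774 had one (4.21%), 253 increases and 521 decreases. The calls and the change share the induced arrays, so the count is a description. The largest increases outside the ER lists were those of FAM230B, at 5.16, 5.12 and 5.67 in the induced WT arrays and 6.29, 6.20 and 6.51 in the mutant arrays (1.02 ± 0.20, adjusted p = 0.00355; change 0.98, adjusted p = 0.982), HSP90B3P (0.75; change 0.62), SNORD1B (change 0.61), LRRIQ1 (change 0.52) and CEBPE (change 0.51). HSP90B3P is a pseudogene whose probes may read HSP90B1 RNA, which was not tested. The largest decreases were those of SNORD115-44 (change -0.91, adjusted p = 0.185) and the olfactory receptor gene OR5D16 (change -0.83, adjusted p = 0.932), genes at log2 levels below 6 from families of near-identical copies, so their values are uncertain. HERPUD1, DERL3, HYOU1 and PDIA4 were past the adjusted threshold for the change in each of the 3 settings that called any gene.

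The labelled cell type was checked with markers. Of 13 measured HEK-293 markers, 12 had levels above the median probe set, and their mean log2 level was 8.60 to 8.61 on the induced WT arrays and 8.79 to 8.83 on the induced mutant arrays. Of these 13 genes 6 were higher and 1 lower in the induced mutant line, 53.8% called against 21.6% of all genes, led by GATA3 (2.61-fold, adjusted p = 2.08e-08). Between the uninduced lines 6 were likewise higher and 1 lower. Levels above the median were seen for 3 of 10 leukocyte, 1 of 8 endothelial, 1 of 9 fibroblast, 4 of 7 epithelial and 3 of 7 neuronal markers. The array means of the leukocyte list were 5.43 to 5.52 on the WT arrays and 5.38 to 5.49 on the mutant arrays. Of its 10 genes 1 was higher, CD68 (1.79-fold), and 3 were lower, LYZ and MS4A1 among them (40.0% called against 21.6%). The fibroblast list had 1 of 9 higher (11.1%) and the epithelial list 1 of 7 (14.3%), and neither had a lower gene. No endothelial marker was called. The neuronal means were 5.43 to 5.51 and 5.61 to 5.76. Of the 7 neuronal markers SYT1 was higher and RBFOX3 lower (28.6% called), and the list's median log2 difference was -0.14. The part of these differences in the results above was not tested.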

How the data were processed

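Affymetrix arrays measured RNA labelled with a whole-transcript kit from 250 ng of input, per the labels' protocols. The deposited values are on a log2 scale, with a column for each array. The submitters' processing notes name RMA; its version was not given in the sources used here. A log base of 2 was inferred from the range, 1.06 to 14.10. The quantile step of RMA gives all arrays nearly the same distribution, so a shift shared by most genes would be hidden.

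Groups were taken from the sample titles. GEO's platform annotation gave 1 symbol to 19158 probe sets, several to 1388 and none to 11775. Each gene used its probe set with the highest mean (637 genes had more than 1), and 18376 genes matched RefSeq's GRCh38.p14 table. All 12 arrays entered 1 group-means model per gene (lmFit and eBayes of limma 3.58.1, R 4.3.3), after the two-way layout in the design text. Contrasts were the line difference in each state, its change, and induction in each line. Steps were tested on simulated data.

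The members, lists, alternatives and genes to name were chosen with earlier results of these data known. The rule named ERO1A and ERO1B, the 20 lowest and 20 highest called genes without overlap, up to 6 called members a list, the panel, and 10 genes each way by the change; members outside it, miRNA genes included, were named after their values were seen to complete a count. Replicate letters were not taken as pairs between lines: deviations of same-letter arrays from their group means correlated between the induced lines with r of 0.320, 0.144 and -0.126 and between the uninduced lines with -0.123, -0.147 and 0.0893. Between the states of the WT line they correlated with 0.391, 0.139 and 0.246, so these letters deviated together, and of the mutant line with 0.117, -0.143 and -0.0192. Alternatives are named in the closing section. Figures used matplotlib 3.10.9.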

Additional observations from a re-analysis of the deposited data

Results flagged for a closer look

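For 7 named genes the line difference had opposite signs in the induced and the uninduced state, with arrays that did not overlap in either. The change of the line difference was 0.448 for SEL1L, 0.496 for DERL3, 0.448 for PDIA4, 0.420 for PDIA6 and 0.461 for MANF, and -0.908 for SNORD115-44 and -0.834 for OR5D16. Their adjusted p values for this change were 0.921 for SEL1L and MANF, 0.185 for DERL3 and SNORD115-44, 0.195 for PDIA4 and PDIA6, and 0.932 for OR5D16, so none passed with limma. The 5 ER genes had higher means in the induced mutant line and lower means in the uninduced mutant line than in the WT line, though only DERL3 was called in both states, and SNORD115-44 and OR5D16 went the other way at low levels. SNORD115-44 was called in both states.

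Probe sets without a gene symbol, which enter no comparison above, also differed between the induced lines. With every probe set in 1 fit, 797 of 11775 without a symbol (6.77%) were past the threshold, 575 higher and 222 lower, against 17.1% of those with 1 symbol and 13.3% of those with several. No gene can be given for them here.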

How the results depend on the processing

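The count of called genes between the induced lines, 3979, lay between 3109 (the 6 arrays of the comparison alone) and 4510 (array weights) over the settings tried, and between 3007 and 4365 with 1 array left out. Without chromosomes 5, 13 and 21 it was 3201. The uninduced count of 3934 rose to 6643 with array weights and lay between 2988 and 4016 with 1 array left out; the cause was not tested. The change of the line difference, with 0 genes as reported, gave 7 with genes at or below a mean log2 level of 6.39 left out, where fewer genes are tested, 9 with a trend and robust prior and 4 with array weights, all increases. The 7 were DERL3, HERPUD1, HMGCS1, HSPA5, HYOU1, PDIA4 and PDIA6; the prior added HSP90B1 and MAGT1, and the weights kept DERL3, HERPUD1, HYOU1 and PDIA4. With a replicate block the counts were 4109, 3959 and 0, and the ERO1A difference was -0.13 (adjusted p = 0.17). With a block for the WT arrays alone, added after seeing the data, they were 4118, 4018 and 0, and the WT response had 17 genes, 16 of them among the 21 reported. ERO1A kept its direction and stayed short of the threshold in all settings.

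Of 181 other named genes, 167 were called as reported, and 149 of them in every setting. The 18 others, lost in at least 1, included DNAJB4 (without WT induced A), RBFOX3 (with the mean of its probe sets), OR5D16 (without WT induced A or B), MS4A1 (without WT induced A or B, or C104A/C131A induced A or C), DOK5, RRM2B, SNORD45C, OR52A1, XAGE5 and FER1L6-AS1, beside those given with their values above. Of 14 not called, 8 were called in some setting: ATF4, CALR, GPX8, HMOX1, MANF, PDIA6, PRDX4 and TRIB3. No called value reversed. With 3 arrays a group the precision is limited, and most so for genes near background.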
